A study of Drosophila melanogaster with 63 samples.

Results

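Glutathione transferases were described here as a gene family over fruit fly embryogenesis, in wild type embryos and in embryos mutant for eve or ftz. Members were all measured genes whose current symbol begins with GstD, GstE, GstO, GstS, GstT or GstZ, together with Mgstl. The rule used names and no measured value, but it was set with earlier results of these data known. It gave 28 genes among 9292 named genes, out of 36 genes of the family in the RefSeq annotation. All 11 Delta genes were measured (GstD1 to GstD11), with 8 of 14 Epsilon genes (GstE1, GstE2, GstE3, GstE10, GstE11, GstE12, GstE13 and GstE14), all 3 Omega genes carrying the family name (GstO1, GstO2, GstO3), the single Sigma gene GstS1, 2 of 4 Theta genes (GstT3, GstT4), both Zeta genes (GstZ1, GstZ2) and the microsomal gene Mgstl. The other 8 genes (GstE4 to GstE9, GstT1 and GstT2) were not analysed here.

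Total RNA of whole Drosophila melanogaster embryos was hybridized to 63 two-colour arrays, with the embryo sample in Cy3 and a common reference pooled over 0 to 22 h of embryogenesis in Cy5. Wild type, eve mutant and ftz mutant embryos were each sampled at 7 ages, 2, 3, 6, 7, 8, 9 and 10 h from egg laying, and each of the 21 groups had 3 arrays. In the stocks, each mutation was kept over a balancer marked with GFP, and the embryos were staged and genotyped before RNA was made. The labels name neither the eve nor the ftz allele, and give no age, strain or agent beyond genotype and hour.

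Glutathione transferases join the tripeptide glutathione to reactive, often fat-soluble molecules, which makes these more soluble and easier to export. The cytosolic enzymes fall into classes named by Greek letters, of which Delta and Epsilon have expanded in insects and are best known for detoxifying insecticides and products of lipid oxidation. Zeta enzymes act in tyrosine breakdown, Omega enzymes carry a cysteine in the active site and reduce or exchange thiols, and microsomal enzymes are a separate family of membrane proteins. The pair-rule genes eve (even skipped) and ftz (fushi tarazu) encode homeodomain proteins that divide the early embryo into alternating segments.

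Each value is a log2 ratio of embryo RNA to the reference, so 1 unit is a doubling relative to the reference, and ratios were compared only within a gene. Neither the base nor the direction of the deposited ratio is stated. The direction, sample over reference, is likely, from lists of maternal and cellularization genes that were higher at 2 h than at 10 h in wild type (medians of -0.03 against -1.02 and 0.85 against -1.44) and of muscle genes that were below 0 at 2 h (median -2.82). A gene is written as called where its adjusted p in limma, over 12424 features, was below 0.05. The eve transcript was lower in eve mutants than in wild type at 2 h, by 1.71 log2 units (-1.20 against 0.51, SE 0.16, adjusted p = 3.11e-11), and over 6 to 10 h, where the difference was -0.50 (SE 0.072). At 3 h it was not lower (0.21 higher, adjusted p = 0.499), so the genotype of the arrays labelled eve at 3 h had no support from this transcript. In ftz mutants the ftz transcript was not called, with differences of -0.16 at 2 h (adjusted p = 0.695) and 0.03 over 6 to 10 h, so the labels ftz had no support from this transcript. At 2 h the eve transcript was lower in ftz mutants (-0.67, adjusted p = 0.00603) and the ftz transcript lower in eve mutants (-1.14, adjusted p = 1.53e-07). Age was read from the wild type profile of the other genes. Averaged over 6 to 10 h, it ran ahead of the label by 0.95 ± 0.72 h in eve and 0.99 ± 0.86 h in ftz. In wild type the value was -0.14 ± 0.76 h (SD, n = 15 arrays each). No estimate could exceed 10 h, and on the 10 h arrays it averaged 9.73 h in eve and 9.85 h in ftz. In whole embryos, fewer cells of a type and less RNA per cell cannot be told apart.

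**Figure D1:**
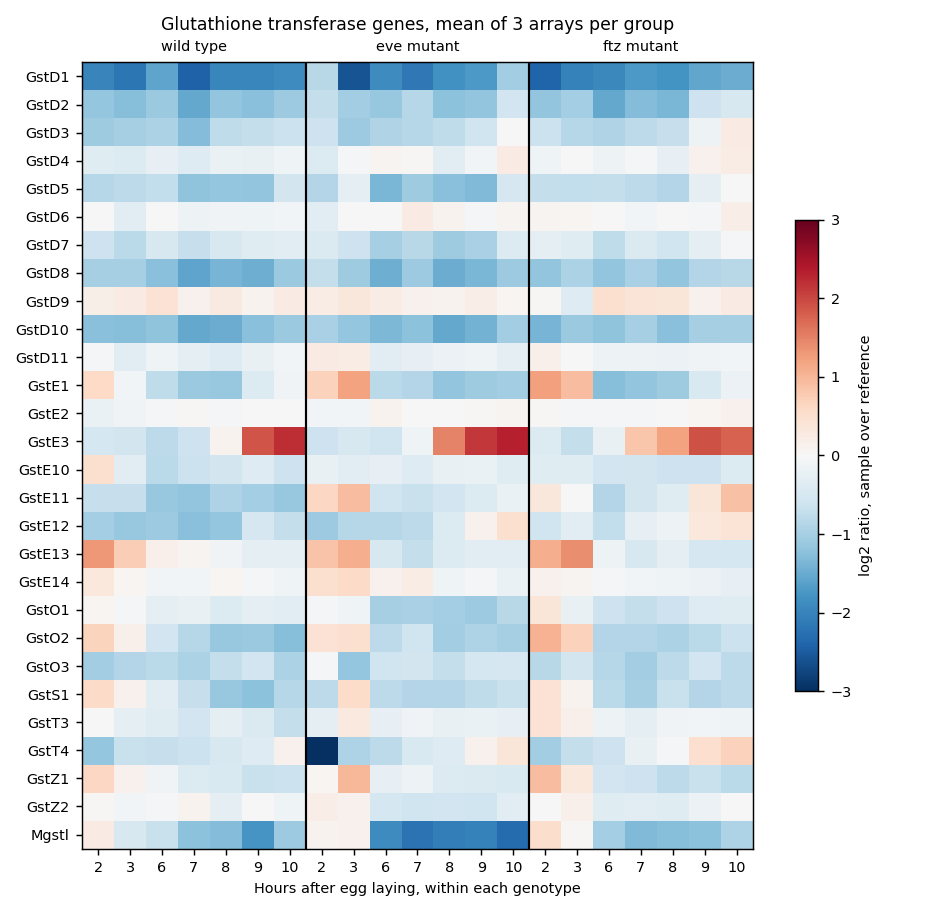
Mean log2 ratio of each glutathione transferase gene (rows, by class) in each of 21 groups (columns, hours after egg laying within genotype), 3 arrays per group. Red is above and blue below the reference. GstE3 turned from about -0.78 at 6 h to 2.22 at 10 h in wild type, while GstE13, GstO2 and GstZ1 ran from positive to negative, and GstT4 stood at -2.99 in eve at 2 h.

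In wild type, the family split into genes that fell after the first hours, 1 gene that rose steeply late, a few that rose moderately and a larger number without a call. Over the 7 times, 12 of 28 genes changed by the F test (42.9 percent), a share near the 38.7 percent of all features. The range of the wild type means was 0.63 log2 units in the median gene (0.24 to 2.99), and 0.40 over all features. Members also varied more between replicates. In each class the median SD within groups was above the 0.170 of all features, at 0.343 in the Delta genes. The part of this spread in the range was not tested. The highest wild type mean lay at 2 h for 13 genes and at 10 h for 8.

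GstE13, an Epsilon gene lying apart from the Epsilon cluster, was at 1.17, 1.17 and 1.59 at 2 h, at 0.61, 0.62 and 0.99 at 3 h, and at -0.46, -0.18 and -0.18 at 10 h (F = 22.2, adjusted p = 1.17e-10). Its arrays at 2 h, 3 h and 10 h did not overlap. It fell by 0.57 between 2 and 3 h (SE 0.18, adjusted p = 0.0235), by 0.59 between 3 and 6 h (SE 0.18, adjusted p = 0.0293) and by 0.49 over 6 to 10 h (SE 0.16, adjusted p = 0.0264). GstO2, of the Omega class, went from 0.56, 0.61 and 0.84 at 2 h to -1.62, -1.26 and -0.93 at 10 h (F = 27.2, adjusted p = 5.37e-12). Its drop between 3 and 6 h was 0.74 (SE 0.20, adjusted p = 0.0143), with a further 0.66 over 6 to 10 h (SE 0.18, adjusted p = 0.00615).

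GstZ1, of the class that acts in tyrosine breakdown, went from 0.50, 0.55 and 0.80 at 2 h to -0.83, -0.73 and -0.38 at 10 h, and fell by 0.54 over 6 to 10 h (SE 0.16, adjusted p = 0.011). GstS1, the Sigma gene whose product conjugates lipid peroxidation products and is abundant in adult flight muscle, stood at -0.11, 0.84 and 0.99 at 2 h and reached its lowest mean at 9 h (-1.22 ± 0.38). It fell by 0.62 over 6 to 10 h (SE 0.21, adjusted p = 0.0342). Mgstl was at 0.04, 0.20 and 0.47 at 2 h and at -1.77 ± 0.42 at 9 h (F = 16.8), with a called drop of 0.72 between 2 and 3 h (SE 0.23, adjusted p = 0.026). At 2 h all arrays of these 3 genes lay above those at 9 h.

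GstE1 and GstE10, neighbours at 1 end of the Epsilon cluster, fell between 2 and 3 h, by 0.68 (SE 0.23, adjusted p = 0.042) and by 0.78 (SE 0.20, adjusted p = 0.00453). GstE10 went from 0.33, 0.47 and 0.61 at 2 h to -0.39, -0.32 and -0.23 at 3 h and stayed between -0.80 and -0.38 in the later means. GstE1 had its lowest mean at 8 h (-1.14 ± 0.38) and then rose again to -0.30, -0.02 and 0.02 at 10 h, a rise over 6 to 10 h of 0.80 (SE 0.20, adjusted p = 0.00373). These 2 genes, GstE13 and Mgstl were the 4 members called between 2 and 3 h, all lower, where 12.2 percent of features were called, 5.45 percent higher and 6.75 percent lower. Between 3 and 6 h, GstE13 and GstO2 were the 2 called members, both lower, where 7.24 percent of features were called, 3.7 percent higher and 3.54 percent lower. GstT3 (0.00 ± 0.09 at 2 h, -0.71 ± 0.08 at 10 h, adjusted p = 3.56e-05) and GstE14 (0.31 ± 0.19 and -0.12 ± 0.20, adjusted p = 0.0394) changed by the F test. GstE14 is also known as noppera-bo and is needed for steroid hormone synthesis.

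GstE3 rose the most in wild type. It lay between -1.27 and -0.25 on all arrays of 6 and 7 h, at 0.03, 0.09 and 0.22 at 8 h, at 1.81, 1.91 and 1.97 at 9 h, and at 1.97, 2.24 and 2.44 at 10 h. The 6 arrays of 9 and 10 h thus lay far above all earlier ones. The fitted rise over 6 to 10 h was 3.40 (SE 0.30, 10.6-fold, adjusted p = 4.68e-12). This linear fit exceeds the observed change in means, from -0.78 at 6 h to 2.22 at 10 h, a range of 2.99. GstE3 lies inside the cluster of close paralogs GstE1 to GstE10, of which GstE4 to GstE9 were not analysed here, and whether its row also binds their transcripts was not tested. Its adjacent paralog GstE2 stayed between -0.21 and 0.03 in the wild type means and was called in none of 15 contrasts.

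GstT4, a Theta gene on the X chromosome, was at -1.23, -1.22 and -0.996 at 2 h and at -0.25, 0.12 and 0.48 at 10 h, and rose by 0.75 over 6 to 10 h (SE 0.18, adjusted p = 0.00165). GstE12 was at -1.12, -1.09 and -1.05 at 6 h and ran from -0.85 to -0.55 at 10 h, a rise of 0.61 (SE 0.15, adjusted p = 0.00285). With GstE1 and GstE3 these were the 4 members with a called rise over 6 to 10 h, beside the 4 with a called fall (GstE13, GstO2, GstS1 and GstZ1), where 15.6 percent of all features were called, 8.03 percent rising and 7.56 percent falling. Without replicate 1 of the wild type groups, the rise of GstT4 was 0.45 (adjusted p = 0.159) and the fall of GstZ1 was -0.35 (adjusted p = 0.28). Without replicate 2, that of GstE13 was -0.32 (adjusted p = 0.252), that of GstO2 -0.56 (adjusted p = 0.0897) and that of GstS1 -0.54 (adjusted p = 0.185). The early drops of GstE1, GstE10, GstE13 and Mgstl likewise missed the threshold without 1 wild type replicate (adjusted p up to 0.226, 0.055, 0.275 and 0.285), as did those of GstE13 and GstO2 between 3 and 6 h (up to 0.284 and 0.146) and the F tests of GstE12 and GstE14 (up to 0.12 and 0.375).

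**Figure D2:**
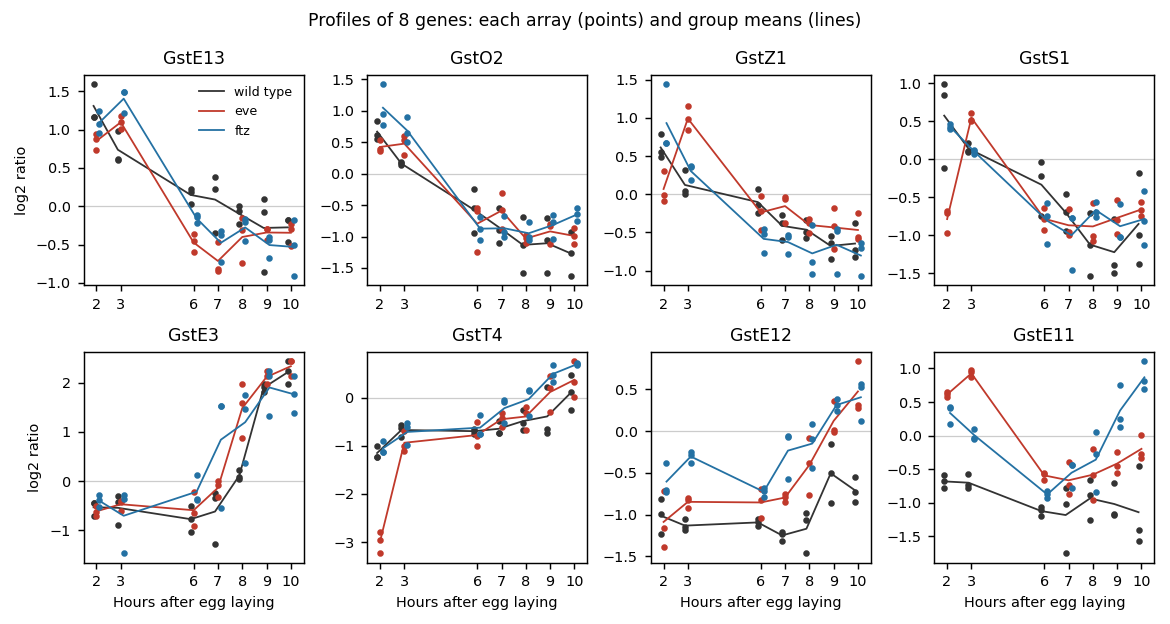
Log2 ratio (vertical axis) by hours after egg laying for 8 genes, with each array as a point and group means joined by lines, in wild type (black), eve (red) and ftz (blue). GstE13, GstO2, GstZ1 and GstS1 ran downwards, with GstZ1 and GstS1 low in eve at 2 h. GstE3, GstT4 and GstE12 ran upwards in all genotypes, and GstE11 ran upwards in ftz to 0.87 at 10 h against -1.14 in wild type.

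None of the 11 Delta genes passed the wild type F test. Their wild type means spanned 0.85 log2 units for GstD1, the enzyme known for DDT breakdown, 0.43 for GstD2, 0.66 for GstD3 and 0.28 for GstD4. GstD1 lay below the reference in all 21 groups, with means from -2.60 to -0.83, and GstD10 likewise from -1.54 to -0.97. GstD9 lay above it in all groups but ftz at 3 h (-0.39), with means up to 0.47. GstE2, GstE11, GstO1, GstO3 and GstZ2 did not pass the F test either.

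Of the profiles over the 21 group means, the 4 pairs with the highest Pearson r joined genes of different classes. They were GstE13 with GstO2 (0.907), GstO2 with GstZ1 (0.902), GstO1 with GstZ2 (0.899) and GstS1 with GstZ1 (0.891), and the lowest was that of GstE14 with GstT4 (-0.784). The median r was 0.310 over 88 pairs of 1 class, 0.135 over 290 pairs of unlike classes and 0.463 over 14 pairs of adjacent genes. These values share arrays, times and the scaling, and describe the groups only.

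In eve mutants over 6 to 10 h, 14 of 28 members differed from wild type, 8 higher and 6 lower, where 39.4 percent of all features were called, 19.6 percent higher and 19.8 percent lower. In ftz mutants 13 differed, 9 higher and 4 lower, where 40.4 percent were called, 20.7 percent higher and 19.7 percent lower. These shares, 50 and 46.4 percent, were not far from the background. The median size of the difference, whatever its sign, was 0.235 log2 units in eve and 0.209 in ftz, against 0.116 and 0.119 over all features. Spread between replicates, by the median larger in each class of members than over all features, also enters these sizes, and its part was not tested. Both comparisons use the same 15 wild type arrays. GstD4, GstE3, GstE11, GstE12 and GstT3 were higher in both, and GstE13, GstO1 and GstZ2 lower in both. No member was called in opposite directions. The share of all features called alike in both mutants was not computed, so this overlap is not shown to be a trait of the family.

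**Figure D3:**
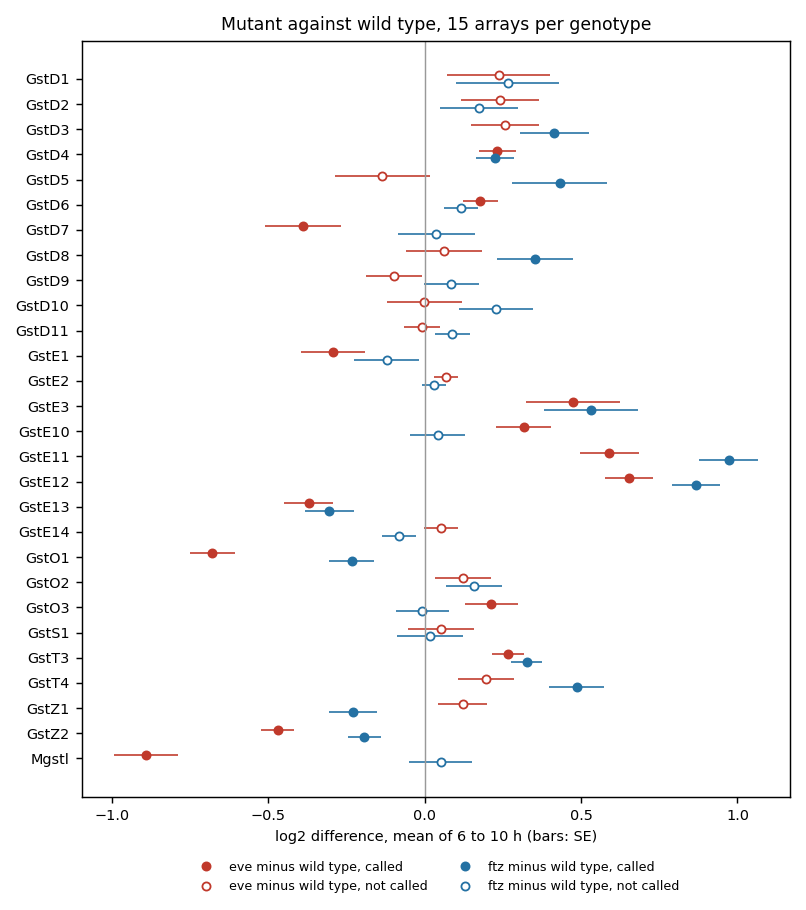
Difference of each mutant from wild type over the mean of 6 to 10 h (horizontal axis, log2 units, bars are the SE of the limma fit), 15 arrays per genotype, for each of 28 genes. Filled points were called and open points were not. GstE11 and GstE12 stood furthest to the right in both mutants, and Mgstl and GstO1 furthest to the left in eve.

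GstE12 was the member that separated both mutants from wild type at all 5 times. How often other features separate in this way was not computed, for this gene or for those below. Its arrays ran from -1.46 to -0.15 with a median of -1.06 in wild type, from -1.04 to 0.84 with a median of -0.38 in eve, and from -0.79 to 0.57 with a median of -0.05 in ftz. At each time all 3 arrays of either mutant lay above all 3 of wild type. The difference was 0.65 in eve (SE 0.076, 1.57-fold, adjusted p = 2.58e-09) and 0.87 in ftz (SE 0.076, 1.82-fold, adjusted p = 1.16e-12).

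GstE11 ran from -1.75 to -0.46 in wild type, with a median of -1.10. The median was -0.55 in eve, with arrays from -0.97 to 0.01, and -0.28 in ftz, with arrays from -0.94 to 1.11. It was higher by 0.59 in eve (SE 0.094, adjusted p = 2.16e-06) and by 0.97 in ftz (SE 0.094, 1.96-fold, adjusted p = 2.21e-11), with complete separation at 3 and at 4 of the 5 times. GstE11 and GstE12 lie at separate places on chromosome arm 2R, away from the main Epsilon cluster.

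GstT3, the other measured Theta gene, ran from -0.76 to -0.18 in wild type, from -0.43 to 0.09 in eve and from -0.36 to 0.09 in ftz. It was higher by 0.27 in eve (SE 0.050, adjusted p = 3.36e-05) and by 0.33 in ftz (SE 0.050, adjusted p = 9.53e-07). GstT4 was higher by 0.49 in ftz (SE 0.089, adjusted p = 2.24e-05), where the eve value was 0.20 (adjusted p = 0.0771). GstE3 was higher by 0.47 in eve (SE 0.15, adjusted p = 0.0101) and by 0.53 in ftz (SE 0.15, adjusted p = 0.00403). Its mean was 0.11 ± 0.10 at 8 h in wild type, 1.48 ± 0.55 in eve and 1.196 ± 0.73 in ftz, and at 10 h 2.22 ± 0.23, 2.33 ± 0.17 and 1.76 ± 0.37 (SD, n = 3 arrays).

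GstE3 is also the member whose difference turned when age entered the model. With genotype and a spline of estimated age in place of the labelled hour, its differences were -0.65 in eve (adjusted p = 0.0204) and -0.65 in ftz (adjusted p = 0.022). In the same model GstE11 kept 0.42 in eve and 0.71 in ftz, and GstE12 kept 0.36 and 0.51, all called, while GstT4 in ftz was at 0.10 (adjusted p = 0.593). With a term for slide-number runs, GstE3 in ftz was at 0.20 (adjusted p = 0.611), and without eve replicate 3 its difference in eve was 0.40 (adjusted p = 0.0763).

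Mgstl had the largest decrease in eve. Its arrays ran from -2.72 to -1.36 with a median of -2.09 in eve, from -2.04 to -0.30 with a median of -1.28 in wild type, and from -1.64 to -0.85 with a median of -1.09 in ftz. All eve arrays lay below all wild type arrays at 4 of the 5 times, and below all ftz arrays at all 5. It was lower by 0.89 against wild type, a difference of -0.89 (SE 0.10, 1.85-fold, adjusted p = 1.70e-09), and the ftz difference was 0.05 (adjusted p = 0.712). The test between the mutants gave -0.94 for eve minus ftz (SE 0.10, adjusted p = 5.96e-10).

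GstO1 ran from -1.21 to -0.60 in eve, from -0.80 to -0.02 in wild type and from -0.83 to -0.05 in ftz. Its eve arrays lay below those of wild type at all 5 times. The differences were -0.68 in eve (SE 0.072, 1.60-fold, adjusted p = 3.30e-10), -0.23 in ftz (SE 0.072, adjusted p = 0.00823) and -0.45 for eve minus ftz (SE 0.072, adjusted p = 4.90e-06). Without ftz replicate 1 the ftz difference was -0.14 (adjusted p = 0.147).

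GstZ2, adjacent to GstZ1, ran from -0.72 to 0.01 in eve, with a median of -0.54, and from -0.49 to 0.20 in wild type, with a median of -0.06. It was lower in eve, with a difference of -0.47 (SE 0.053, adjusted p = 1.29e-09), and in ftz, with -0.19 (SE 0.053, adjusted p = 0.00288). The ftz difference was not called with the slide-run term (-0.14, adjusted p = 0.206). Its neighbour GstZ1 was lower in ftz (-0.23, adjusted p = 0.0159, and 0.0691 without wild type replicate 2), with 0.12 in eve (adjusted p = 0.22), and the mutants differed from each other by 0.35 (SE 0.078, adjusted p = 4.21e-04). The GstZ1 call in ftz was also lost with the slide-run term and with the first digit of the title number as a random block. It was lost as well with estimated age as a covariate or a spline (adjusted p up to 0.558 over these settings). GstE13 was lower in both mutants (-0.37 and -0.31), and this was not called once estimated age was a covariate or a spline (-0.20, adjusted p = 0.118, and -0.14, adjusted p = 0.283, with the spline).

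**Figure D4:**
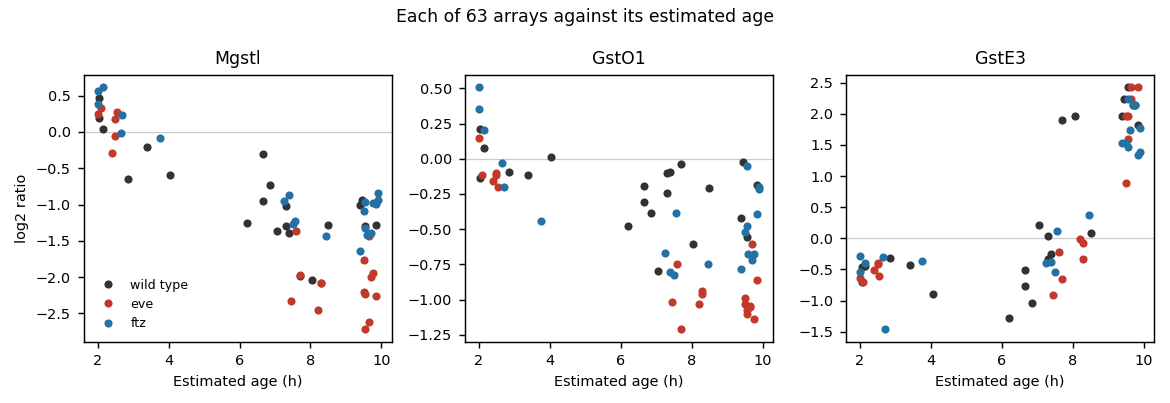
Log2 ratio of Mgstl, GstO1 and GstE3 on each of 63 arrays (points) against the age in hours estimated from the wild type profile of the other genes. The eve points (red) lay low for Mgstl and GstO1 at late estimated ages, and for GstE3 all 3 genotypes climbed to between about 1.33 and 2.44 near the end of the age range, with 1 eve array at 0.88.

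In eve over the same hours, GstE10 (0.32), GstD4 (0.23), GstO3 (0.21) and GstD6 (0.18) were higher, and GstD7 (-0.39) and GstE1 (-0.29) were lower. In ftz, GstD5 (0.43), GstD3 (0.42), GstD8 (0.35) and GstD4 (0.22) were higher. GstD1, GstD2, GstD9, GstD10, GstD11, GstE2, GstE14, GstO2 and GstS1 were called in neither mutant. Of the calls in this paragraph, that of GstD3 in ftz and that of GstD4 in eve kept the threshold without each replicate in turn, and each call was lost under at least 1 other setting. GstE1 was at 0.042 in eve when only 6 to 8 h were used (adjusted p = 0.852). Within the 17 late arrays of wild type and eve that share 1 run of slide numbers, all 14 called members kept their sign, as did all 13 called members for ftz within 5 arrays. These arrays were among those that gave the calls, so the kept signs are a description and no separate test of slide runs. Some differences were smaller within the run, as for GstE10 in eve (0.12) and GstE1 in eve (-0.14).

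Between the mutants over 6 to 10 h, 12 members differed, 4 higher in eve and 8 lower, where 36 percent of features were called, 17.3 percent higher and 18.7 percent lower. GstE10, GstE14, GstO3 and GstZ1 were higher in eve. GstD5 (-0.57, SE 0.15, adjusted p = 0.00282), GstD7 (-0.43), GstE11 (-0.38), GstE12 (-0.21), GstO1, GstT4 (-0.29), GstZ2 (-0.28, SE 0.053, adjusted p = 5.92e-05) and Mgstl were lower in eve than in ftz. GstO1, GstZ2 and Mgstl were the 3 of these 12 called under each alternative that was run. Within 6 late arrays of both mutants that share 1 run of slide numbers, 11 of the 12 kept their sign, and GstD7 was at 0.00027. These arrays, too, were among those that gave the calls.

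Over 6 to 10 h the ftz series held 9 rising members and none falling by the test, where 19.9 percent of features were called, 9.97 percent rising and 9.92 percent falling. The median trend was 0.275 over the 28 genes and -0.02 over all features. A run of neighbouring Delta genes rose, GstD3 by 1.17 (SE 0.22, adjusted p = 6.00e-05), GstD2 by 1.11 (SE 0.25, adjusted p = 7.39e-04) and GstD4 by 0.39. GstE3 rose by 2.01, GstE11 by 1.77 (SE 0.19, adjusted p = 9.72e-10), GstT4 by 1.34, GstE1 by 1.16, GstE12 by 1.12 and GstZ2 by 0.34. The GstE3 trend differed between runs of slide numbers, at 0.95 within 9 ftz arrays of 1 run and 2.88 within 6 of another. In eve 5 members had a called trend, where 18.3 percent of features did, 9.24 percent rising and 9.08 percent falling. These were GstE3 (3.24), GstE12 (1.43), GstT4 (1.14) and GstD3 (0.84), which rose, and GstE14, which fell by 0.36. Without eve replicate 1 the trends of GstD3 and GstE14 in eve were 0.48 and -0.23 (adjusted p = 0.274 and 0.268), and those of GstD4 and GstZ2 in ftz missed the threshold without ftz replicate 2 (adjusted p = 0.125 and 0.173).

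The trend itself was tested between genotypes. GstE11 rose in ftz by 1.72 more than in wild type (SE 0.27, adjusted p = 6.14e-05), with arrays at -0.94, -0.87 and -0.83 at 6 h and at 0.69, 0.81 and 1.11 at 10 h, against -1.57, -1.40 and -0.46 at 10 h in wild type. GstO2 also differed in ftz (0.86, SE 0.25, adjusted p = 0.0417), and these were the 2 called members, both higher, where 3.53 percent of features were called, 2.12 percent higher and 1.4 percent lower. In eve the 2 called members were GstE12 (0.83, SE 0.21, adjusted p = 0.0192) and GstE1 (-1.06, SE 0.29, adjusted p = 0.029), where 3.16 percent were called, 1.67 percent higher and 1.49 percent lower. GstE1 reached -0.10 ± 0.17 at 10 h in wild type and -1.03 ± 0.65 in eve. The GstE11 difference was called under each alternative, and the other 3 were not called without at least 1 replicate, with adjusted p up to 0.289 for GstO2, 0.253 for GstE12 and 0.1 for GstE1.

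At 2 h, 8 members differed between eve and wild type, 3 higher and 5 lower, where 21.6 percent of features were called, 10.3 percent higher and 11.3 percent lower. GstT4 stood apart, at -3.23, -2.95 and -2.79 in eve against -1.23, -1.22 and -0.996 in wild type and -1.13, -1.12 and -0.91 in ftz. No other group of the 21 had a mean below -1.15. The difference from wild type was -1.84 (SE 0.20, 3.58-fold, adjusted p = 1.40e-09). GstS1 was at -0.97, -0.71 and -0.68 in eve, below all wild type arrays (-0.11, 0.84 and 0.99), a difference of -1.36 (SE 0.24, adjusted p = 2.22e-05). GstE10 (-0.70), GstZ1 (-0.54) and GstT3 (-0.30) were lower as well, and were not called without eve replicate 2, without wild type replicate 1 and without any 1 replicate, respectively (adjusted p = 0.0589, 0.109 and up to 0.187).

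GstE11 was higher in eve at 2 h, at 0.57, 0.62 and 0.65 against -0.78, -0.68 and -0.59 in wild type (1.30, SE 0.21, adjusted p = 8.14e-06). GstO3 was at -0.08, -0.06 and 0.01 in eve and at -1.35, -0.90 and -0.88 in wild type (1.001, SE 0.19, adjusted p = 7.98e-05). For both genes the groups did not overlap. With cyclic loess between arrays the GstO3 difference was 0.62 (adjusted p = 0.0114). On the same 3 eve arrays, 936 features of low mean ratio lay above their own means by 0.343, 0.489 and 0.492 in the median, and the part of this in the 2 differences was not tested. GstD1 was higher by 1.15 (SE 0.37, adjusted p = 0.0195), and without eve replicate 2 by 0.53 (adjusted p = 0.361). In ftz at 2 h, 3 members were called, 2 higher and 1 lower, where 6.1 percent of features were, 2.37 percent higher and 3.73 percent lower. These were GstE11, at 0.17, 0.41 and 0.42 (1.02, SE 0.21, adjusted p = 0.00112), GstT3 (0.44) and GstE10 (-0.82), of which the last 2 were not called without ftz replicate 1 (adjusted p = 0.074 and 0.0576). The estimated age at 2 h was 2.17 h in eve, 2.05 h in ftz and 2.08 h in wild type.

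At 3 h the arrays labelled eve had 6 members higher than wild type and none lower, where 9.57 percent of features were called, 5.4 percent higher and 4.17 percent lower. GstE11 was at 0.87, 0.94 and 0.97, against -0.79, -0.74 and -0.58 in wild type (1.63, SE 0.21, adjusted p = 5.89e-07). GstE1 was at 1.02, 1.14 and 1.45, against -0.18, -0.04 and -0.02 (1.29, SE 0.23, adjusted p = 1.33e-04). GstZ1 (0.87), GstT3 (0.60), GstD11 (0.55) and GstE14 (0.51) were the others. Estimated age was 2.52 h on these arrays and 3.43 h in wild type at 3 h, and GstE1 was among the genes that fell between 2 and 3 h in wild type. The part of age in the difference was not tested. Arrays of the 3 groups at 3 h carry slide numbers of separate runs, so run and genotype cannot be told apart there. With runs as a term GstE1 alone was called, and without eve replicate 1 GstE14 was at 0.38 (adjusted p = 0.0651).

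In ftz at 3 h, 8 members were called, 7 higher and 1 lower, where 13.7 percent of features were, 6.65 percent higher and 7.07 percent lower. GstE1 was at 0.80, 0.92 and 1.05 (1.002 above wild type, SE 0.23, adjusted p = 0.00201) and GstE12 at -0.38, -0.29 and -0.25 (0.83, SE 0.17, adjusted p = 6.11e-04), against -1.18, -1.17 and -1.05 in wild type. GstE11 (0.71), GstE13 (0.67), GstT3 (0.46), GstD4 (0.43) and GstD6 (0.40) were also higher and GstD9 was lower (-0.63). GstE1 and GstE12 were called under each alternative, and the other 6 were each lost without at least 1 replicate, with GstD4, GstD6 and GstD9 at adjusted p up to 0.133, 0.14 and 0.116. Estimated age was 3.03 h in ftz.

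GstE11 was called higher than wild type in both mutants at 2 h and over 6 to 10 h, in ftz at 3 h and on the arrays labelled eve at 3 h. The call on the arrays labelled eve at 3 h was lost with the slide-run term (0.54, adjusted p = 0.563), and that in ftz at 3 h without single replicates (adjusted p up to 0.0716). Its wild type means stayed between -1.18 and -0.68 at all 7 times, and those of the mutants between -0.88 and 0.93. The wild type arrays are shared by these comparisons.

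The Delta genes varied more between replicates than most features. The pooled SD within groups had a median of 0.343 over the 11 genes and of 0.170 over all features. For 7 of the 11 (GstD1, GstD2, GstD3, GstD5, GstD7, GstD8 and GstD10) it lay above the 95th percentile of all features, and these were grouped after their values were seen. Their deviations from the group means went together, with r from 0.320 to 0.874 and a median of 0.602 over 21 pairs and 63 arrays. GstD9, which lies between GstD10 and GstD1, deviated in the opposite direction, with r from -0.599 to -0.446 against the same genes. These r values include eve replicate 2 at 2 h and eve replicate 1 at 10 h, where the 7 genes averaged 0.275 and 0.034. GstD9 stood at -0.208 and -0.363 on these arrays, and no r was computed without them. GstD10, GstD9 and GstD1 to GstD8 are adjacent on chromosome arm 3R, and their transcripts are close paralogs, so whether a row binds several of them was not tested.

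**Figure D5:**
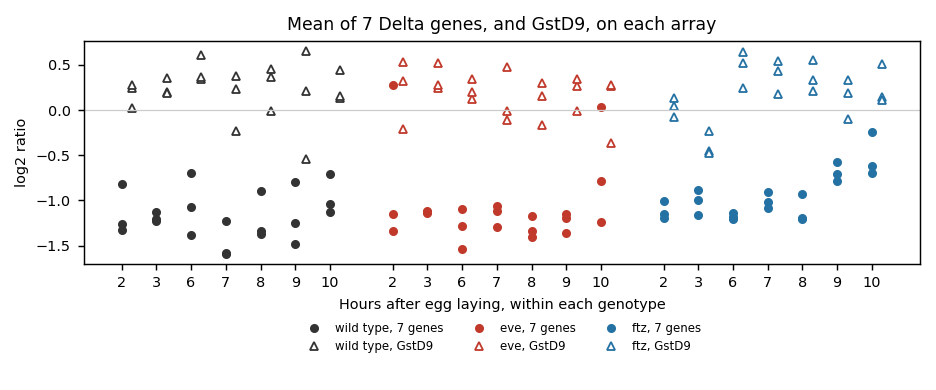
Mean log2 ratio of 7 Delta genes (filled circles) and the log2 ratio of GstD9 (open triangles) on each array, by hours after egg laying within each genotype. Eve replicate 2 at 2 h (0.275) and eve replicate 1 at 10 h (0.034) lay above the other arrays, and ftz at 9 and 10 h lay above the earlier ftz times.

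The mean of these 7 genes was 0.275 on eve replicate 2 at 2 h and 0.034 on eve replicate 1 at 10 h. On the other 61 arrays it ran from -1.59 to -0.24, with a median of -1.15. The 936 other features of low mean ratio were not matched in level to the 7 genes. They deviated by 0.489 in the median on the 2-h array and by 0.050 on the 10-h array. On the fellow replicates of the 2-h array they stood at 0.343 and 0.492. The mean of the 7 Delta genes on those fellow replicates was -1.33 and -1.15. The Delta genes without a called late difference in eve included GstD1, GstD2 and GstD5, and the high eve array of 10 h enters that comparison.

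Among 28 other genes of glutathione and peroxide metabolism, 20 were measured, and 11 changed over the wild type time course, where 38.7 percent of all features did. In wild type over 6 to 10 h Cat, which encodes catalase, rose by 1.15 (SE 0.10), Prx6c, a peroxiredoxin gene, by 1.04, the glutathione peroxidase homologue Gtpx by 1.002, the transporter gene Mrp4 by 0.53 and Sod2, for the mitochondrial superoxide dismutase, by 0.34, while the transporter gene MRP fell by 0.40. Over 6 to 10 h, 13 differed between eve and wild type, 8 higher and 5 lower, where 39.4 percent of features were called, 19.6 percent higher and 19.8 percent lower. Between ftz and wild type 10 differed, 6 higher and 4 lower, where 40.4 percent were called, 20.7 percent higher and 19.7 percent lower. The median differences were 0.041 and -0.071, against 0.003 and 0.005 over all features. Both subunit genes of glutamate cysteine ligase, the first step of glutathione synthesis, were higher in both mutants, Gclc by 0.32 and 0.33 and Gclm by 0.34 and 0.25 in eve and ftz. Cat was higher by 0.39 and 0.43, Mrp4 by 0.42 and 0.19, and Prx6c by 2.11 and 1.89 (SE 0.091 each). Cat, Mrp4 and Prx6c also rose with time in wild type, and estimated age averaged ahead of the label in both mutants. The part of age in the mutant differences of these 20 genes was not tested. Their values with slide runs as a term or with a replicate left out are not given here.

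Genes that were lower in both mutants included Keap1, the inhibitor of the antioxidant regulator encoded by cnc (-0.15 in eve and -0.32 in ftz), the extracellular superoxide dismutase gene Sod3 (-0.31 and -0.60) and se (-0.36 and -0.24). The gene se, sepia, encodes an Omega-class enzyme of eye pigment synthesis and lies between GstO3 and GstO2 on chromosome arm 3L. GstO1, 2 genes further on, was also lower in both mutants, and GstO2, which lies between them, was not called (0.12, adjusted p = 0.281, in eve and 0.16, adjusted p = 0.158, in ftz). Prx1 was lower in eve (-0.68, SE 0.12) and cnc in ftz (-0.31, SE 0.076).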

How the data were processed

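The authors deposited a single table of log2 ratios, 1 column per array, of 20000 rows, of which 13228 held values on every array and 6772 were blank. Trizol was the extraction reagent, per the labels' protocols. The submitters' processing notes name limma without a version. The sources used here give no background correction or filter. The sorted deposited log2 values were the same on all arrays within 0.000784, so quantile normalization between arrays had been applied, which removes depth as a measure. The base was taken as 2, as in limma output. The lowest r between 2 arrays was -0.0412, and replicates correlated at 0.510 to 0.953. Signal over background is unknown.

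The platform annotation gave 10096 rows 1 symbol, of which 10093 were brought up to date through the gene ID, 220 rows several and 2912 rows none. Rows of 1 symbol were averaged, giving 12424 features. Each member had 1 row. Gene order came from RefSeq Release 6 (GCF_000001215.4). Of the planned steps, promoter motifs, protein identities and sequences were not used here.

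All 63 arrays entered 1 model in limma 3.58.1 (R 4.3.3) with 21 group means and 42 residual degrees of freedom, empirical Bayes moderation and 2-sided tests, with Benjamini-Hochberg adjustment over all features and a threshold of 0.05. A trend is the linear contrast over the means of 6 to 10 h, given as the fitted change from 6 to 10 h. The model was tested on simulated data. Estimated age was the point on the interpolated wild type profile with the highest correlation, members left out. The profile ended at 10 h, so no estimate could exceed that. The labels do not say whether replicates are separate collections of embryos, and the spread behind the p-values may therefore be technical.

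The members and lists were chosen with earlier results of these data known. Every member was named. Values per array were planned for members that passed the wild type F test or differed by at least 0.5 in a mutant mean contrast, and full statistics for up to 6 genes each way. Some of these members, such as GstE14 and GstD1, were given by group means or differences alone. Alternatives, 21 in number, covered scaling, filtering, the samples in the fit, slide runs (a gap over 5 in the slide numbers starts a new run), age, blocks and replicates left out. The spline of estimated age, the use of only 6 to 8 h and the title number as a block were chosen after seeing the data. Some slide numbers recur, so runs are only possible batches.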

Additional observations from a re-analysis of the deposited data

Results flagged for a closer look

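A difference in trend over 6 to 10 h between a mutant and wild type was tested for every member, and 4 genes passed, 2 in each mutant, where 3.16 percent of features were called in eve and 3.53 percent in ftz. The calls of GstO2, GstE12 and GstE1 were each lost when 1 replicate was left out. GstE11 in ftz rose by 1.72 more than in wild type (SE 0.27, adjusted p = 6.14e-05), from -0.88 at 6 h to 0.87 at 10 h where wild type went from -1.13 to -1.14. GstO2 in ftz differed by 0.86 (SE 0.25, adjusted p = 0.0417). Its ftz mean was -0.87 at 6 h and -0.65 at 10 h, and its wild type mean -0.58 and -1.27. GstE12 in eve differed by 0.83 (SE 0.21, adjusted p = 0.0192), from -0.86 at 6 h to 0.47 at 10 h where wild type went from -1.09 to -0.71. GstE1 in eve differed by -1.06 (SE 0.29, adjusted p = 0.029), with means of -0.80 and -1.03 in eve and of -0.76 and -0.10 in wild type. Mean estimated age in the mutants ran ahead of the label at 6 to 9 h, with 7.58 h in eve and 7.40 h in ftz at 6 h. At 10 h it did not (9.73 h in eve and 9.85 h in ftz), and no estimate could exceed 10 h. The part of age in the trends was not tested.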

How the results depend on the processing

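Only the 108 results called in the main fit were followed here, so calls gained under an alternative do not enter. Over the alternatives that leave out no replicate, 789 of 906 values stayed called, 114 were no longer called and 3 reversed. Each member had 1 row, so testing each row alone or only features with a symbol left its array values unchanged. Calls under these settings could move only through the other features, so their agreement was close to fixed in advance. Leaving out a replicate gave 528 values, of which 412 were unchanged in call, 116 were no longer called and 0 reversed. The reversed values were GstE3 with a spline of estimated age (-0.65 in eve and -0.65 in ftz, adjusted p = 0.0204 and 0.022) and GstE1 in eve over only 6 to 8 h (0.042, adjusted p = 0.852). The cause was not tested. Shares of all features called under each alternative are not given here, so the counts below do not single out the members. With only the groups compared in the fit, called members numbered 7 for wild type 3 h against 2 h, 1 for 6 h against 3 h, 5 for the wild type trend, 11 for eve at 3 h, 0 for the eve trend difference and 1 for that of ftz. With slide runs as a term they numbered 2 for wild type 3 h against 2 h, 5 for the wild type trend, 8 for ftz late, 4 for eve against ftz, 1 for eve at 3 h, 5 for ftz at 3 h, 1 for the eve trend difference and 4 for that of ftz. Averaging the 5 times gave 8 for eve late and 7 for eve against ftz. The age spline gave 8 for ftz late, only 6 to 8 h gave 6 for eve against ftz, and cyclic loess gave 1 for the ftz trend difference. Leaving out 1 replicate gave 11 to 12 by the F test, 1 to 4 for wild type 3 h against 2 h, 0 to 2 for 6 h against 3 h, and 4 to 7, 3 to 6 and 7 to 10 for the trends in wild type, eve and ftz. It gave 11 to 15 for eve late, 9 to 16 for ftz late, 7 to 13 for eve against ftz, 5 to 8 and 5 to 7 for eve at 2 and 3 h, 1 to 3 and 4 to 7 for ftz at 2 and 3 h, and 1 to 2 for each trend difference. The first digit of the title number entered as a random block within a genotype (correlation 0.118). Title numbers recur between genotypes at 2 and 3 h and between eve and ftz later, but did not pair the arrays. Same-numbered arrays correlated at -0.26 to 0.071 over 18 pairs at 2 and 3 h and at -0.257 to 0.111 over 15 later pairs, in deviations from the group means, and 3 of 18 and 7 of 15 correlated best with their own number. With this number as a replicate block, 11 members were called for eve against ftz, 6 and 7 for eve at 2 and 3 h, and 3 and 8 for ftz at 2 and 3 h.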
